A study of Mus musculus with 6 samples.

Results

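The decapping enzymes, their scaffolds and the 5'-3' exonucleases were followed through naive CD4 T cells labelled as Cmtr1 conditional knockout or control. The 10 genes, Dxo, Dcp1a, Dcp1b, Dcp2, Dcps, Nudt16, Edc3, Edc4, Xrn1 and Xrn2, were taken by name from the 46983 genes counted. All 10 were found in the count tables and passed the filter on low counts. RNA-seq libraries depleted of ribosomal RNA came from 2 groups, 4 labelled Cmtr1 cKO, from male Cmtr1 fl/fl mice with CD4cre, and 2 controls, from male Cmtr1 fl/fl mice without it. Both groups therefore carry the floxed allele, and a group with CD4cre alone was not analysed here. CD4cre is known to be active in the T cell lineage from the thymus onward, and recombination at Cmtr1 in the sorted cells was not measured. Cells were sorted from lymph nodes as TCRb+, CD4+, CD62L+, CD44- and DAPI-, and the sources used here do not give the age of the mice.

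CMTR1 methylates the 2'-O of the ribose in the nucleotide that follows the cap of an mRNA. The cap shields mRNA from decay at its 5' end. In the main cytoplasmic route the Nudix hydrolase DCP2, held in a complex by DCP1A or DCP1B with EDC3 and EDC4, removes the cap and leaves a 5' monophosphate, and XRN1 then degrades the body of the mRNA. In the nucleus XRN2 degrades 5' monophosphate RNA, including the piece left behind RNA polymerase II after 3' end cleavage. DXO removes incomplete caps and also cuts RNA from the 5' end, and the human enzyme is blocked in biochemical assays by 2'-O-methylation next to the cap. NUDT16 is a second Nudix decapping enzyme, and DCPS hydrolyses the cap fragment left by decay from the 3' end.

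The base whose ribose CMTR1 would modify is the first of the transcript. The annotated starts of 8 members in RefSeq (GRCm38.p6) are printed here for that base, as 20 bases before the start and 10 from it, 5' to 3' on the gene's strand, with the first transcribed base in capitals.
Dcp1a, chr14:30479545-30479574, plus strand: ctgaagtaccacgctcggcaAggctgggcc
Dcp1b, chr6:119175233-119175262, plus strand: ctcgctcggcggtcgattgaGggggcttcc
Dcps, chr9:35175978-35176007, minus strand: gcttcttcgtgcaggcgggtAcggttcttc
Nudt16, chr9:105131796-105131825, minus strand: ccgaggcgctggcctctgcaAgaacccgga
Edc3, chr9:57708549-57708578, plus strand: ccgggtaggccgagacgcggGggcgtttcc
Edc4, chr8:105880861-105880890, plus strand: aggttccgggagcgaaggtcAgtgggaccg
Xrn1, chr9:95954740-95954769, plus strand: ggtttgctctatggtctggcGgaccttgtg
Xrn2, chr2:147012979-147013008, plus strand: ccccgcggtggtggtatgacGtaacttccg
In RefSeq, Dcp1a, Dcps, Nudt16 and Edc4 start with A, and Dcp1b, Edc3, Xrn1 and Xrn2 start with G. Over all 32851 annotated promoters of that table, 34.4% start with A, 35.6% with G, 16.3% with C and 13.7% with T. None of the 8 starts with C followed by 4 bases that are C or T, a start of the kind found in mRNAs of the translation machinery, against 2.51% of all promoters. The 8 do not include Dxo, which had no entry in the promoter set used, or the catalytic subunit gene Dcp2, which was left out. The first bases of Dxo and Dcp2 are therefore not given, and the tally does not describe all 10 genes. These are annotated starts, and where transcription began in these cells was not measured. For Dcp1a, Dcps, Nudt16, Edc3 and Xrn2 the outermost gene start in GENCODE vM21 lies further upstream than the base in capitals. The first base therefore depends on the annotation for these genes.

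The libraries held 9513874 to 11526912 gene counts in Cmtr1 cKO and 11120548 and 11949838 in the controls. P-values here measure the spread between libraries, and no label says whether each came from its own mouse. The targeted gene, Cmtr1, had 16.0, 19.8, 14.6 and 7.57 CPM in Cmtr1 cKO 1 to 4, against 11.2 and 11.4 CPM in the controls, where CPM are counts per 1000000 gene counts after TMM scaling. It was therefore not lower in the libraries labelled Cmtr1 cKO as a group, and it does not check the labels, since the sources used here do not name the deleted exon and Cmtr1 shares exons with Gm28043. Its log2 fold change was 0.36 (edgeR adjusted p = 0.461). It was called higher without Cmtr1 cKO 4 (0.58, edgeR adjusted p = 0.0081) and with a replicate block (0.66, edgeR adjusted p = 2.456e-04), and was -0.65 (edgeR adjusted p = 0.106) when adjusted for the share of reads outside exons. Cmtr1 cKO 3 stood apart in strand, with 5.57 own-strand gene counts for each opposite-strand count, against 18.7 to 22.7 in the other libraries. Uniquely mapped reads outside annotated exons, called the outside-exon share here, made up 52.3%, 51.6%, 46.7% and 38.02% in Cmtr1 cKO 1 to 4, against 37.2% and 34.0% in the controls. Every Cmtr1 cKO library lay above both controls, so a fit with this share as a covariate cannot fully tell it apart from genotype. Summed markers of naive CD4 T cells came to 5732 to 6769 CPM in Cmtr1 cKO and to 6204 and 6393 CPM in the controls, with 10 of 10 detected and 1, Ccr7, a lymph node homing receptor, lower in Cmtr1 cKO. B cell markers came to 18.7 to 37.0 CPM against 27.8 and 36.5 CPM, and CD8 T cell markers to 16.9 to 21.3 CPM against 23.6 and 28.6 CPM. NK cell markers came to 3.91 to 5.41 CPM against 5.85 and 9.41 CPM, so for NK and CD8 T cell markers every Cmtr1 cKO library lay below both controls. Myeloid markers came to 22.3 to 26.6 CPM against 24.5 and 42.6 CPM, and erythroid markers to 0.634 to 2.36 CPM against 1.57 and 3.78 CPM, with Klrb1c, Itgax and Alas2 each at 0 in a library. Those of regulatory T cells came to 118.7 to 162.9 CPM against 103.8 and 152.6 CPM, and those of activated T cells to 154.5 to 168.2 CPM against 149.2 and 171.0 CPM, with Ifng and Gzmb at 0 in a library and Cd44, a gate marker, lower in Cmtr1 cKO. The part of these differences in the results was not tested. In such bulk samples, fewer cells of a type and less RNA per cell cannot be told apart.

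None of the 10 genes was called between Cmtr1 cKO and control libraries, while 11.4% of the 12748 genes tested were called by edgeR's quasi-likelihood test. The fitted changes were small in both directions, 5 positive and 5 negative, with a median log2 fold change of 0.0080 for the 10 genes and -0.00047 for all genes tested. The median size of the change was 0.083 on the log2 scale for the 10 genes and 0.20 for all genes tested, and the median SE was 0.084 and 0.12. Dcp1b had the largest change and was the only member with an unadjusted p under 0.05, against 30.9% of all genes tested. The 95% interval lay within 0.5 on the log2 scale to either side of 0, a change of 1.41-fold, for 9 of the 10 genes and for 49.3% of all genes tested. Dcp1b was the exception. The 10 mRNAs together made up 972.5, 982.6, 1004 and 992.1 CPM in Cmtr1 cKO 1 to 4, against 950.8 and 989.6 CPM in the controls.

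How many of all genes tested were called depended on the fit, so each count of calls is read against its own background. It was 12.4% with DESeq2, of the 11758 genes to which DESeq2 gave an adjusted p. It was 11.3% with RLE factors, 9.11% with no filter on low counts, 8.89% on unstranded counts and 14% on protein-coding genes. It was 38% with a replicate block, 24.6% with library quality weights and 5.22% when adjusted for the outside-exon share. With 1 library left out it was 5.88%, 5.25%, 4.78% and 30.8% without Cmtr1 cKO 1 to 4, and 1.95% and 1.48% without control 1 and 2. The 10 genes had 2 calls with the block, 1 with no filter, with quality weights and without Cmtr1 cKO 4, and 0 under each of the other alternatives.

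**Figure D1:**
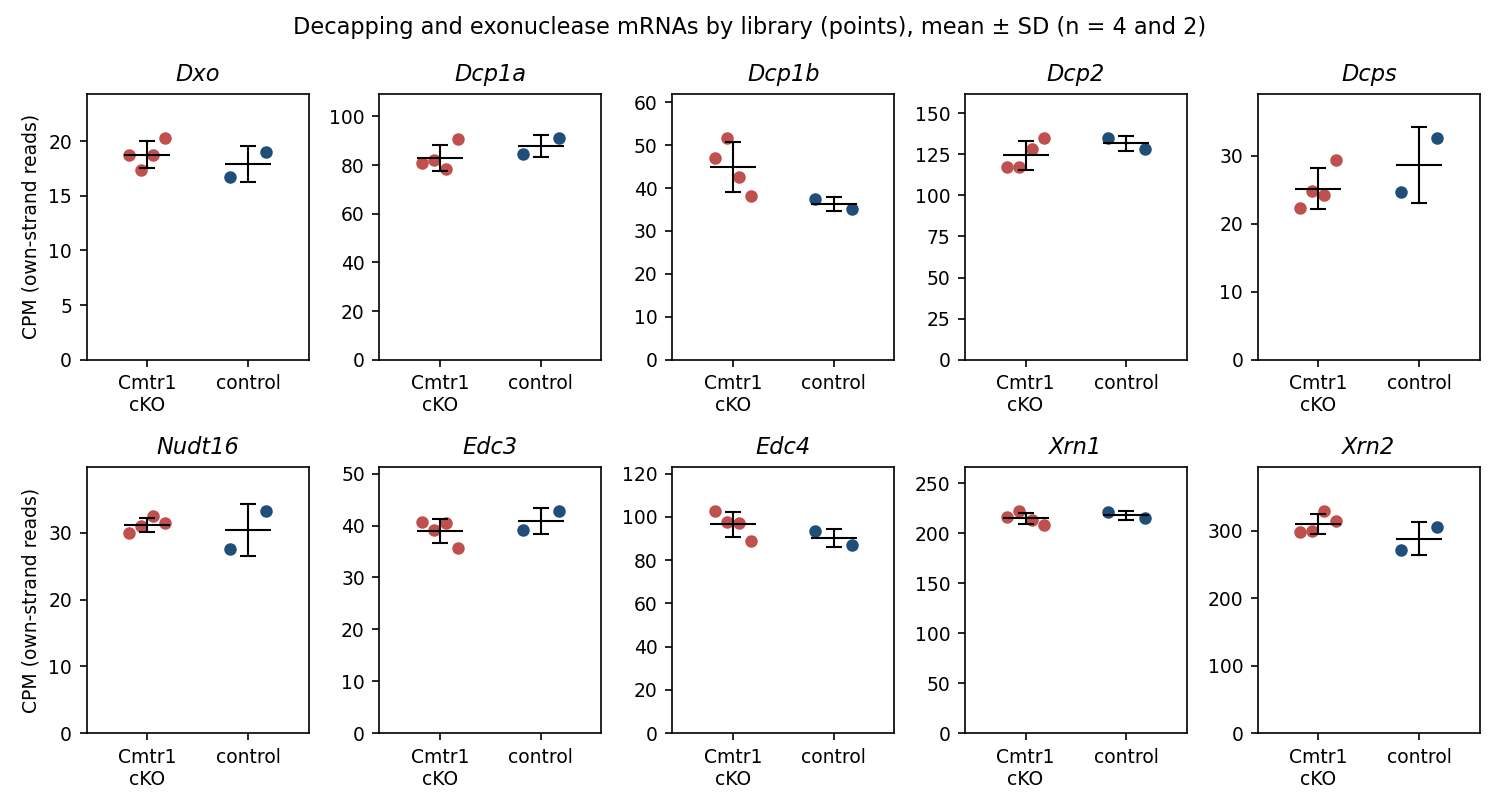
CPM of own-strand reads for the 10 genes, 1 panel each, with 4 Cmtr1 cKO libraries (red, left) and 2 controls (blue, right); points are libraries and bars are mean ± SD. The groups overlap in every panel but that of Dcp1b, where the Cmtr1 cKO libraries sit at 38.2 to 51.7 CPM and the controls at 35.1 and 37.5 CPM.

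The DCP1 subunits exist as a pair of paralogs, DCP1A and DCP1B, that activate DCP2. Dcp1b (ENSMUSG00000041477.14, chromosome 6, 119175253 to 119221616, plus strand) had 46.9, 51.7, 42.5 and 38.2 CPM in Cmtr1 cKO 1 to 4, against 37.5 and 35.1 CPM in the controls. All 4 Cmtr1 cKO libraries lay above both controls, as they did for 18.2% of all genes tested, and Cmtr1 cKO 4 was above control 1 by less than 1 CPM. The means were 44.8 ± 5.8 CPM (SD, n = 4) and 36.3 ± 1.7 CPM (SD, n = 2), a log2 fold change of 0.30 ± 0.12 (SE) with a 95% interval of 0.049 to 0.56, and edgeR gave adjusted p = 0.107. Without Cmtr1 cKO 4 the change was 0.38 and was called (edgeR adjusted p = 0.0065), in a comparison that called 30.8% of all genes tested. The library quality weights from limma were 0.374 for Cmtr1 cKO 4 and 1.12 to 1.35 for the other libraries.

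Dcp1b levels moved with the outside-exon share across libraries, though not alone among the 10 genes. The 3 libraries with the largest share, Cmtr1 cKO 1, 2 and 3, had the highest Dcp1b levels, and the control with the smallest share had the lowest. Edc4 was also highest in these 3 libraries, and Dcp1a and Dcp2 were lowest in them. The remaining members did not split in this way. The share of all genes tested that split in this way was not counted. The split is therefore not read as particular to these genes. Fitted with that share as a covariate, Dcp1b had a log2 fold change of -0.0069 (edgeR adjusted p = 0.982). The share was larger in every Cmtr1 cKO library than in both controls, so this fit cannot fully tell it apart from genotype. Of the 5 annotated transcripts of Dcp1b, 3 retain an intron, and 47.7% of its 6339 exon bases lie outside its protein-coding transcripts. Among the 10 genes this percentage is next highest for Xrn1, at 43.6%, which varied least between libraries. The part of unspliced or intron-retaining RNA in the Dcp1b count was not tested.

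Dcp1a (ENSMUSG00000021962.9, chromosome 14, 30479535 to 30527063, plus strand), the more abundant paralog, had 80.7, 82.1, 78.4 and 90.6 CPM in Cmtr1 cKO 1 to 4, against 84.5 and 91.2 CPM in the controls. Cmtr1 cKO 1, 2 and 3 lay below both controls and Cmtr1 cKO 4 between them. The log2 fold change was -0.082 ± 0.079 (SE), with a 95% interval of -0.26 to 0.091 and edgeR adjusted p = 0.511. It was -0.014 without control 2, -0.043 without Cmtr1 cKO 3 and -0.13 without control 1 or without Cmtr1 cKO 4. The ratio of Dcp1b to Dcp1a counts was 0.581, 0.630, 0.542 and 0.422 in Cmtr1 cKO 1 to 4, against 0.444 and 0.385 in the controls. It was above both controls in 3 of 4 Cmtr1 cKO libraries, with a difference of 0.38 on the log2 scale. The exact two-sided permutation test gave p = 0.200 (adjusted p = 0.400 over 3 ratios), and 15 splits can give no p under 0.0667.

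**Figure D2:**
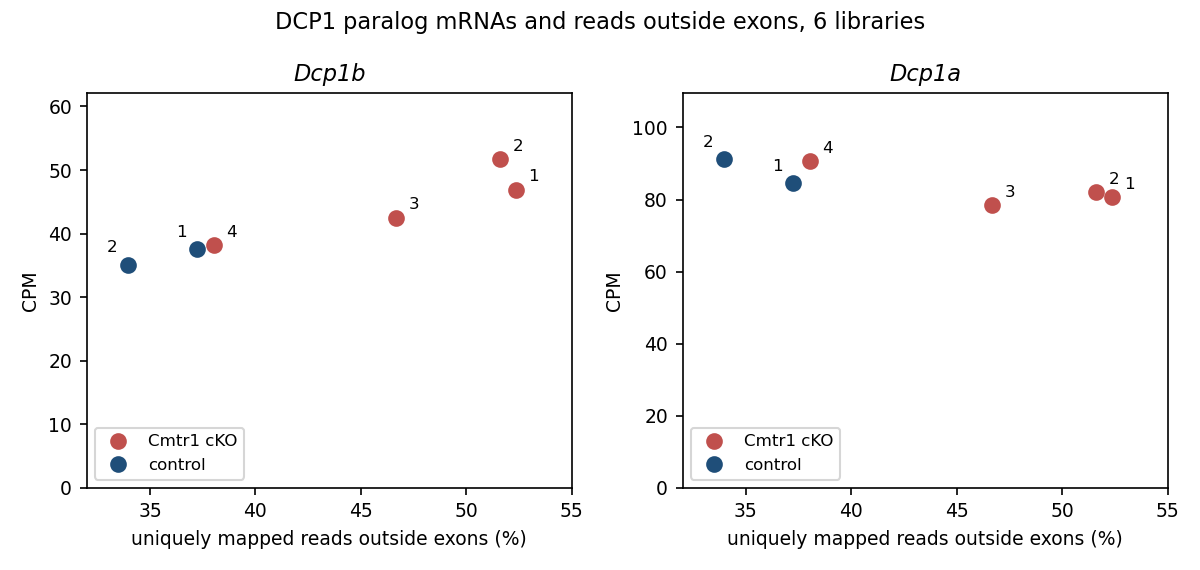
CPM of Dcp1b (left) and Dcp1a (right) on the vertical axis against the percentage of uniquely mapped reads outside exons on the horizontal axis; red points are Cmtr1 cKO libraries, blue points are controls, and numbers are replicates. Dcp1b is lowest, at 35.1 CPM, in the control with 34.0% of reads outside exons and highest, at 51.7 CPM, in Cmtr1 cKO 2 with 51.6%. Dcp1a is highest, at 91.2 CPM, in that same control. It is lowest in Cmtr1 cKO 1, 2 and 3, which have the largest percentages, down to 78.4 CPM in Cmtr1 cKO 3.

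Dcp2 (ENSMUSG00000024472.9, chromosome 18, 44380502 to 44424969, plus strand), the catalytic subunit, had 117.0, 117.5, 128.0 and 134.7 CPM in Cmtr1 cKO 1 to 4, against 135.0 and 128.5 CPM in the controls. Cmtr1 cKO 1, 2 and 3 lay below both controls, and Cmtr1 cKO 4 lay between them. Its log2 fold change was -0.084 ± 0.077 (SE), with a 95% interval of -0.25 to 0.085 and edgeR adjusted p = 0.489. Adjusted for the outside-exon share it was 0.063 (edgeR adjusted p = 0.717), and that of Dcp1a was 0.053 (edgeR adjusted p = 0.797).

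Neither scaffold of the complex was called. Edc4 (ENSMUSG00000036270.16, chromosome 8, 105880881 to 105894908, plus strand), the large scaffold that brings DCP1 and DCP2 together, had 102.6, 97.6, 97.2 and 88.7 CPM in Cmtr1 cKO 1 to 4, against 93.4 and 87.2 CPM in the controls. Cmtr1 cKO 1, 2 and 3 lay above both controls and Cmtr1 cKO 4 between them, and its log2 fold change of 0.095 ± 0.078 (SE) did not pass (edgeR adjusted p = 0.431). An overlapping gene on the same strand, Nrn1l, shares 8.33% of the exon bases of Edc4, and reads there enter neither count if both genes were in the annotation used. Edc3 (ENSMUSG00000038957.13, chromosome 9, 57708540 to 57752499, plus strand), an enhancer of decapping that binds DCP2 and the helicase DDX6, had 40.6, 39.1, 40.4 and 35.7 CPM in Cmtr1 cKO 1 to 4, against 39.2 and 42.7 CPM in the controls. The groups overlapped, and its log2 fold change was -0.072 ± 0.090 (SE, edgeR adjusted p = 0.616).

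Dxo (ENSMUSG00000040482.16, chromosome 17, 34837019 to 34839233, plus strand) was the least abundant member in CPM. It had 18.7, 17.3, 18.7 and 20.3 CPM in Cmtr1 cKO 1 to 4, from 202, 191, 177 and 236 counts, against 16.7 and 19.0 CPM in the controls, from 191 and 196 counts. The groups overlapped, with only Cmtr1 cKO 4 above both controls. For Dxo the log2 fold change was 0.073 ± 0.12 (SE), with a 95% interval of -0.18 to 0.33, that is 0.880-fold to 1.26-fold, and edgeR adjusted p = 0.705. Over the 6 libraries the log2 CPM of Egr2, an immediate early transcription factor gene, of Rab11fip4os1 and of Atad2, a chromatin ATPase gene, were the most like those of Dxo among all genes tested outside the 10, with Pearson's r of 0.979, 0.968 and 0.964. None of these 3 was called, and the values of r are a description over 6 libraries, each gene pair being read from the same libraries, with no test. Rab11fip4os1 rested on few reads, at 0.437 to 1.63 CPM over the libraries.

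The other enzymes that act on caps or cap fragments were not called either. Nudt16 (ENSMUSG00000032565.9, chromosome 9, 105128903 to 105131824, minus strand) had 29.9, 31.0, 32.5 and 31.4 CPM in Cmtr1 cKO 1 to 4, all within the range of the controls at 27.6 and 33.2 CPM. Its log2 fold change was 0.038 ± 0.10 (SE, edgeR adjusted p = 0.826). Dcps (ENSMUSG00000032040.15, chromosome 9, 35124408 to 35176061, minus strand) had 22.3, 24.8, 24.2 and 29.4 CPM in Cmtr1 cKO 1 to 4, against 24.7 and 32.6 CPM in the controls. The controls lay further apart than the group means, which were 25.2 ± 3.0 CPM (SD, n = 4) and 28.6 ± 5.6 CPM (SD, n = 2). The log2 fold change of Dcps was -0.18 ± 0.14 (SE), with a 95% interval of -0.48 to 0.12 and edgeR adjusted p = 0.395, and it was 0.13 (edgeR adjusted p = 0.688) when adjusted for the outside-exon share.

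The exonucleases were the most abundant of the 10 in CPM. Xrn1 (ENSMUSG00000032410.13, chromosome 9, 95954760 to 96057803, plus strand), the cytoplasmic enzyme, had 216.0, 221.9, 213.1 and 208.2 CPM in Cmtr1 cKO 1 to 4, against 221.2 and 214.9 CPM in the controls. The highest library exceeded its lowest by 1.07-fold, the narrowest range of the 10 genes. Its log2 fold change was -0.022 ± 0.066 (SE), with a 95% interval of -0.17 to 0.12, that is 0.891-fold to 1.09-fold, and edgeR adjusted p = 0.849. Xrn2 (ENSMUSG00000027433.5, chromosome 2, 147012996 to 147078000, plus strand), the nuclear enzyme, had 297.8, 299.6, 328.6 and 314.9 CPM in Cmtr1 cKO 1 to 4, against 271.0 and 305.1 CPM in the controls. All 4 Cmtr1 cKO libraries were above the control mean but only 2 were above both controls, and the log2 fold change of 0.11 ± 0.079 (SE) did not pass (edgeR adjusted p = 0.378). The value rested on which control was used, at 0.033 without control 1 and 0.21 without control 2.

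The ratio of Xrn1 to Xrn2 counts was 0.725, 0.741, 0.648 and 0.661 in Cmtr1 cKO 1 to 4, against 0.816 and 0.704 in the controls. Cmtr1 cKO 3 and 4 were below both controls and the other libraries overlapped, with a difference of -0.13 on the log2 scale (exact two-sided permutation p = 0.267, adjusted p = 0.400 over 3 ratios). The ratio of Dcp2 to Xrn1 counts, which sets the decapping enzyme beside the exonuclease that acts after it, was 0.542, 0.530, 0.601 and 0.647 in Cmtr1 cKO 1 to 4, against 0.610 and 0.598 in the controls. The controls lay inside the range of Cmtr1 cKO, and the difference was -0.064 on the log2 scale (exact two-sided permutation p = 0.667, adjusted p = 0.667).

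**Figure D3:**
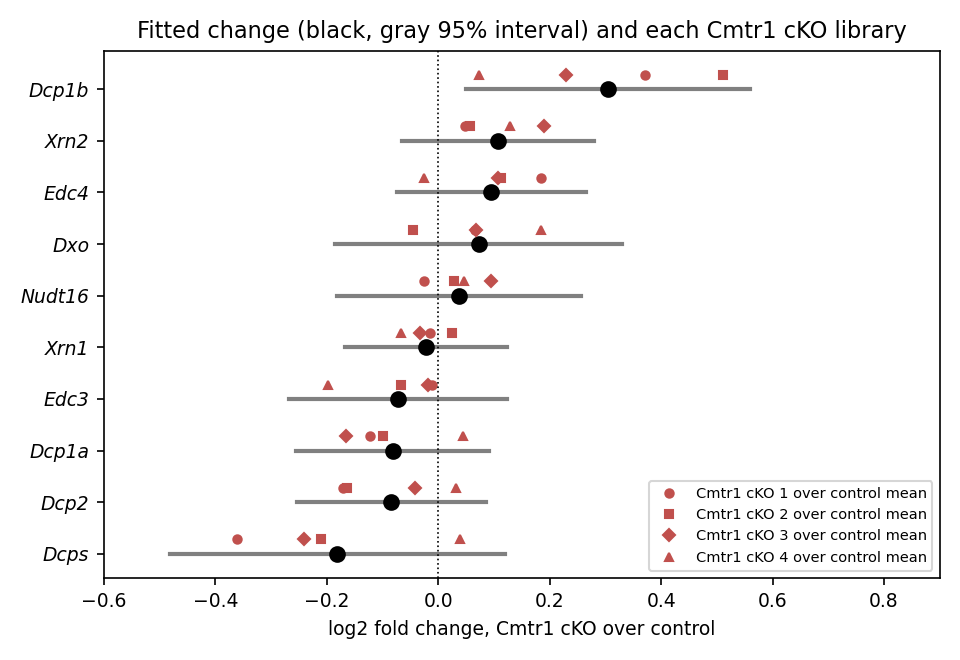
Log2 fold change of Cmtr1 cKO over control (horizontal axis) for the 10 genes, from the most positive to the most negative; black points are fitted values, gray lines 95% intervals, and red symbols each Cmtr1 cKO library against the control mean. The interval of Dcp1b, 0.049 to 0.56, is the only interval that does not include 0, and Cmtr1 cKO 4 lies at 0.074 for that gene.

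Per kilobase of annotated exon and over the 6 libraries, Xrn2 stood highest, at 76.1 ± 4.9 CPM per kb (SD, n = 6). It was followed by Dcps at 18.2 ± 2.7, Edc4 at 17.2 ± 1.1, Dcp2 at 14.6 ± 0.91, Nudt16 at 11.9 ± 0.77, Xrn1 at 11.6 ± 0.28, Dcp1a at 10.3 ± 0.64, Dxo at 9.42 ± 0.65, Edc3 at 6.83 ± 0.40 and Dcp1b at 6.62 ± 1.0 CPM per kb. The ranges over libraries overlapped for Dcps with Edc4 and with Dcp2, and for Nudt16 with Xrn1 and with Dcp1a. They also overlapped for Dcp1a with Dxo and for Edc3 with Dcp1b. Compared within each library, Dcps was above Edc4 in 3 of 6 libraries and Nudt16 above Xrn1 in 4. Dcp1a was above Dxo in 5 and Edc3 above Dcp1b in 4. The order within each pair compared in this way therefore differed between libraries. The order also depends on the length used. Per kilobase of the transcript with the longest coding sequence, which is 5499 bases for Xrn1 against 18585 annotated exon bases, Xrn1 stood at 39.3 CPM per kb, second to Xrn2 at 88.2. On that scale Dcp1b, at 12.7 CPM per kb, stood above Dxo, at 12.2, and Edc3, at 6.94.

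The genes around these enzymes were read from 4 lists by role, chosen with earlier results of these data known. Of all genes tested, edgeR called 11.4%, and 30.9% had an unadjusted p under 0.05 in edgeR. DESeq2 called 12.4% of the 11758 genes to which it gave an adjusted p. Of 14 activators of decapping (the LSM1-7 ring, PATL1, DDX6, the LSM14 proteins, EIF4ENIF1 and the PNRC coactivators), edgeR called 0, with 3 at an unadjusted p under 0.05, DESeq2 called 0, and the median log2 fold change was -0.073. The smallest p belonged to Lsm14b and Lsm14a, which encode RNA granule proteins that bind DDX6. Lsm14b had 42.2, 42.8, 41.7 and 43.4 CPM in Cmtr1 cKO 1 to 4, against 50.3 and 49.0 CPM in the controls, and its log2 fold change was -0.22 ± 0.076 (SE), with adjusted p = 0.0764 in edgeR. Its groups did not overlap, and in 20.8% of all genes tested every Cmtr1 cKO library was likewise below both controls. Lsm14a had -0.18 ± 0.072 (SE, edgeR adjusted p = 0.122). Without Cmtr1 cKO 4, 3 of the 14 were called, beside 30.8% of all genes tested.

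Of 14 genes whose proteins recruit decapping to chosen mRNAs (among them ZFP36 and roquin proteins, UPF1, SMG5, Argonautes and TNRC6 proteins), 1 rose, 0 fell and the median log2 fold change was 0.097, beside 4.66% of all genes tested called higher and 6.77% called lower. In either direction, 7 of the 14 had an unadjusted p under 0.05 in edgeR, against 30.9% of all genes tested. DESeq2 called 2 of the 14. The gene that rose was Smg5, an adaptor of nonsense-mediated decay. It had 189.2, 190.8, 186.8 and 183.2 CPM in Cmtr1 cKO 1 to 4, against 148.9 and 145.8 CPM in the controls, so the groups lay well apart. In 18.2% of all genes tested every Cmtr1 cKO library was above both controls. The log2 fold change was 0.35 ± 0.065 (SE, edgeR adjusted p = 0.0084), and 0.30 when adjusted for the outside-exon share (edgeR adjusted p = 0.0095). With a single control it was 0.37 without control 1 and 0.35 without control 2 and was not called (edgeR adjusted p = 0.0767 and 0.114), in comparisons that called 1.95% and 1.48% of all genes tested. Without Cmtr1 cKO 4, 7 of the 14 were called, beside 30.8% of all genes tested.

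Of 8 further Nudix and histidine triad genes whose products have been reported to act on caps or related dinucleotides, or are paralogs of such enzymes, 7 were tested. EdgeR and DESeq2 called 0 of them, 1 had an unadjusted p under 0.05 in edgeR, and the median log2 fold change was 0.17. Nudt12 did not pass the filter, with 7, 9, 9 and 7 counts in Cmtr1 cKO 1 to 4, against 10 and 2 counts in the controls. The smallest p was that of Fhit, a histidine triad hydrolase, at 2.499, 1.81, 1.48 and 1.12 CPM in Cmtr1 cKO 1 to 4, against 0.700 and 0.680 CPM in the controls. Its groups did not overlap, as in the 18.2% of all genes tested with every Cmtr1 cKO library above both controls. Its log2 fold change of 1.31 ± 0.44 (SE) rested on few reads and did not pass (edgeR adjusted p = 0.0742). Without Cmtr1 cKO 4, 2 of the 7 were called, beside 30.8% of all genes tested. Nudt3, an inositol pyrophosphate hydrolase with decapping activity, had 0.17 ± 0.091 (SE, edgeR adjusted p = 0.227). Adjusted for the outside-exon share, Nudt3 was called at 0.39 (edgeR adjusted p = 0.0043).

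Of 6 genes whose proteins bind XRN2 or act with it in transcription termination, 1 fell, 0 rose and the median log2 fold change was -0.20. Over all genes tested, 6.77% were called lower and 4.66% higher. In either direction, 2 of the 6 had an unadjusted p under 0.05 in edgeR, against 30.9% of all genes tested. DESeq2 called 2 of the 6. The gene that fell was Cdkn2aipnl, whose product carries an XRN2-binding domain. It had 54.3, 57.7, 60.8 and 68.8 CPM in Cmtr1 cKO 1 to 4, against 83.5 and 84.7 CPM in the controls. Every Cmtr1 cKO library was below both controls, as in 20.8% of all genes tested, and Cmtr1 cKO 4 lay nearest to them. The log2 fold change was -0.48 ± 0.092 (SE, edgeR adjusted p = 0.0098), beside -0.24 when adjusted for the outside-exon share, where it was not called (edgeR adjusted p = 0.119). It was also not called with a single control (-0.48 without control 1 and -0.45 without control 2, edgeR adjusted p = 0.0952 and 0.129). Without Cmtr1 cKO 4, 3 of the 6 were called, beside 30.8% of all genes tested.

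**Figure D4:**
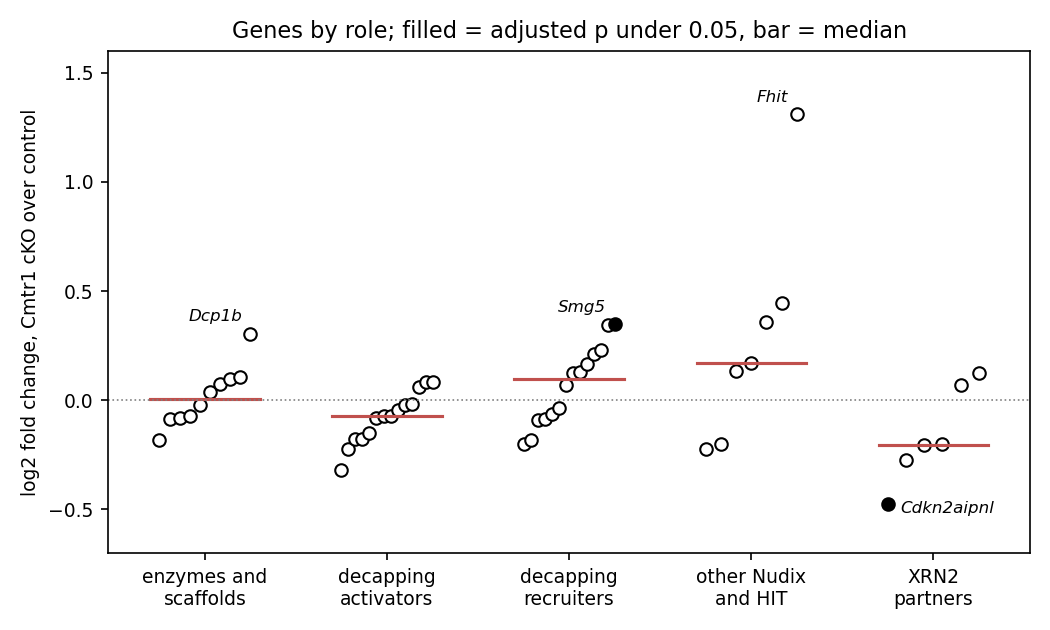
Log2 fold change of Cmtr1 cKO over control (vertical axis) for each tested gene of the 10 decapping and exonuclease genes and of the 4 lists by role; filled points passed at an adjusted p under 0.05 (edgeR), open points did not, and red bars are medians. The medians run from -0.20 for XRN2 partners to 0.17 for other Nudix and histidine triad genes, and the filled points are Smg5 at 0.35 and Cdkn2aipnl at -0.48.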

How the data were processed

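RNA of naive CD4 T cells was sequenced after ribosomal RNA depletion with an Illumina TruSeq kit, per the labels' protocols. The authors deposited raw read counts for every gene, in the layout of a STAR gene table with an unstranded and 2 stranded columns. The submitters' processing notes name STAR 2.5.2b and edgeR and the builds mm10 and GRCm38, and the sources used here do not give the annotation behind the counts. Identifiers without versions matched GENCODE vM21 (GRCm38) for 98.9% of 46983 genes and for all 10 members. The 4 rows that name no gene held 52.1% to 62.0% of all reads and entered neither library sizes nor tests. Counts come from the stranded column with more reads, at 18.7 to 22.7 times the other column in 5 libraries and 5.57 times in Cmtr1 cKO 3. STAR counts a read only when it maps to 1 place and to 1 gene, so reads over exons shared with an overlapping gene on the same strand are missing from both.

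The filterByExpr function of edgeR 4.0.16 (R 4.3.3) left 12748 genes. After TMM scaling, edgeR's robust quasi-likelihood test was run with genotype as the only term and Benjamini-Hochberg adjustment across these genes. A gene with adjusted p under 0.05 is called. Each standard error (SE) is the log2 fold change divided by the square root of F, and 95% intervals use the t quantile of each gene's degrees of freedom. Ratios of a pair of members within a library were tested by exact two-sided permutation over the 15 splits. Alternatives were DESeq2 1.42.0, RLE factors, no filter, unstranded counts, protein-coding genes alone, limma 3.58.1 voom with quality weights, a replicate block, the outside-exon share of reads as a covariate, and each library left out. The code was tested on simulated counts. Members and gene lists were chosen with earlier results of these data known. Named genes are the members, Cmtr1, the called genes of each list (or, with none called, the 2 of smallest p) and the 3 genes most like Dxo, while Ccr7, Cd44, Nudt12 and Clk3 were chosen after their values were seen. Chi-square per degree of freedom was 6.67 between the controls and 1.93 (Cmtr1 cKO 1 and 2) to 20.1 among Cmtr1 cKO 1, 2 and 4. It was 46.2 to 54.0 for pairs with Cmtr1 cKO 3. Each library therefore counted as 1 sample.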

Additional observations from a re-analysis of the deposited data

How the results depend on the processing

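Of 140 values of the 10 genes under the 14 alternatives, 123 kept their sign and their side of the threshold, 5 passed the threshold with the same sign and 12 changed sign, none of these called. Calls among the 10 numbered 1 (Dcp1b) with no filter on low counts (0.31, adjusted p = 0.0378), with quality weights (0.34, limma adjusted p = 0.0320) and without Cmtr1 cKO 4 (0.38), and 2 under the replicate block (Dcp1b 0.44 and Dcp2 -0.17), with edgeR unless named. Adjusted for the outside-exon share, the sign turned for Dcp1a (0.053), Dcp1b (-0.0069), Dcp2 (0.063), Dcps (0.13) and Edc4 (-0.059), and for Cmtr1 (-0.65), which was called higher without Cmtr1 cKO 4 (0.58) and under the replicate block (0.66). Xrn1 was at 0.0057 under the replicate block and 0.0098 on protein-coding genes. With 1 library left out, Dxo ran from -0.011 (without control 1) to 0.18, Nudt16 from -0.081 (without control 1) to 0.19, Xrn1 from -0.036 to 0.0089 (without control 1), Dcps from -0.36 to 0.045 (without control 2) and Edc3 from -0.12 to 0.0039 (without control 2). Dcp2 ran from -0.13 (without Cmtr1 cKO 4) to -0.038 (without control 1), with -0.054 and -0.056 without Cmtr1 cKO 1 and 2, Edc4 from 0.060 (without control 2) to 0.16 (without control 1), Dcp1a from -0.13 to -0.014 (without control 2) and Xrn2 from 0.033 (without control 1) to 0.21 (without control 2), none called. The cause was not tested.

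All genes called numbered 1457, against 2272 with no filter, 4842 under the replicate block, 666 with the covariate, 3139 with quality weights and 193 to 3880 with 1 library left out. Calls among decapping activators numbered 5 under the block, 1 with the covariate, 1 with quality weights and 0 to 3 with 1 library left out. Calls among recruiters numbered 2 in DESeq2, 2 with no filter, 9 under the block, 6 with quality weights, 3 on protein-coding genes and 0 to 7 with 1 library left out. Calls among other Nudix and histidine triad genes numbered 2, 1 and 1 under the block, the covariate and quality weights and 0 to 2 with 1 library left out. Calls among XRN2 partners numbered 2 in DESeq2, 3 under the block, 0 with the covariate, 2 with quality weights and 0 to 3 with 1 library left out. With 1 library left out, Dcp1b ran from 0.23 (without Cmtr1 cKO 2) to 0.38. The differences in ratio kept their sign, at 0.28 to 0.50 for Dcp1b to Dcp1a, -0.24 to -0.024 for Xrn1 to Xrn2 and -0.12 to -0.022 for Dcp2 to Xrn1. With a single control, that library is assumed to vary like the Cmtr1 cKO libraries.

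The groups share only replicate numbers 1 and 2, and no label says that a number marks a pair. Deviations from the group means correlated over genes at 0.125 for number 1 and -0.131 for number 2, so the replicate block is an alternative only, and it leaves Cmtr1 cKO 3 and 4 out of the genotype estimate. Dxo had the fewest counts, 177 to 236 a library, and Dcps the largest SE of the 10, 0.14.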

Other observations

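Reads on the strand opposite to the 10 genes were at most 18 counts in any library for Dxo, which shares 6 exon bases with Skiv2l on the other strand, and at most 6 for 7 of the other genes. Edc3 and Dcps stood out. Edc3 had 547, 494, 435 and 446 opposite-strand counts in Cmtr1 cKO 1 to 4, against 379 and 400 in the controls, beside 439, 431, 382 and 415 counts on its own strand in Cmtr1 cKO 1 to 4 and 448 and 440 in the controls. Clk3, which encodes a kinase of splicing factors, shares 22.1% of the exon bases of Edc3 on the opposite strand. Clk3 itself had 94.1, 91.9, 89.3 and 84.0 CPM in Cmtr1 cKO 1 to 4, against 71.1 and 70.7 CPM in the controls, and its log2 fold change was 0.34 (edgeR adjusted p = 0.0162). It is named after its values were seen. Dcps had 105, 134, 101 and 70 opposite-strand counts in Cmtr1 cKO 1 to 4, against 90 and 87 in the controls, and shares 7.65% of its exon bases with 4930581F22Rik on the other strand. The source of these opposite-strand reads was not tested.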
